A study of Populus euphratica with 12 samples.

Results

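The circular RNAs circRNA_0839 and circRNA_0351 of *Populus euphratica* leaves and the mRNAs they overlap in the sense direction, XM_011001732.1 and XM_011029125.1, are described here across the leaf shapes of the tree. The circRNAs were 2 of the 1149 listed in the series and were picked for where their junction reads were found: circRNA_0839 was listed in the Bo libraries only, and circRNA_0351 was listed in every library except those of Li. The mRNAs were 2 of 49676 in the mRNA tables and were taken because the circRNA tables name them as the overlapping transcripts. Since those readouts chose the members, the group patterns of both circRNAs are given as values with no test, and the tests concern the mRNAs, their genes and their neighbours.

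The leaf blade of desert poplar widens as a tree matures, from linear (Li) through lanceolate (La) and then ovate (Ov) to broad-ovate (Bo). Juvenile leaves were sampled as Li from trees of 0 to 3 years, La from trees of 4 to 6 years, Ov from trees of 8 to 12 years and Bo from trees over 20 years old, with no treatment named in the labels and 3 libraries of total RNA per group. Leaf shape and tree age changed together and cannot be told apart. The labels call the 3 libraries of a group biological replicates and say no more of their origin, so p-values measure the spread between these libraries.

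A circRNA forms when a splice donor is joined to an acceptor upstream of it in the same transcript, which closes the RNA into a ring with no cap and no poly(A) tail. Only reads across this back-splice junction tell the ring from the linear mRNA. Other reads of the ring can also count towards the FPKM of its host where they match its spliced transcripts. In plants, circRNAs have mostly been found at low levels and often from genes with several isoforms. The deposited circRNA values are RPM, junction reads scaled to the reads of the library, and the mRNA values are FPKM, fragments scaled to transcript length and to the reads of the library.

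The lowest RPM values put the depth at 81.5 to 86.0 M reads per library, of which 3421 to 10106 were junction reads. The lowest value listed in each library equalled 2 junction reads, so a circRNA at 0 had fewer than 2 reads. Of the marker genes of leaf blade and shoot apex that could be checked, the abaxial blade factor YABBY5-like (XM_011021842.1) was above 0 in all 12 libraries, with its highest mean in Li (66.7 FPKM), followed by La (33.4), Ov (31.4) and Bo (19.1). The limma adjusted p of XM_011021842.1 was 0.0668 for La, Ov and Bo against Li and 0.228 for Bo against the others. Its relative YABBY1 (XM_011019167.1) was at 0 to 5.67 FPKM and was listed at 0 in La2 and Bo3. The meristem gene KNAT1 (XM_011018754.1) was at 1.02 to 2.24 FPKM in Bo, 5.24 to 24.2 in Ov, 2.53 to 8.25 in La and 1.76 to 11.0 in Li (limma, adjusted p = 0.262 over the 4 groups). The stem cell gene WUS (XM_011044901.1) was at 0 to 0.322 FPKM. KAN2 (XM_011029815.1) was at 0.00109 to 1.37 FPKM and LFY (XM_011041984.1) at 0.528 to 2.92 FPKM, and the part of these markers in the results below was not tested.

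Gene LOC105107701 on scaffold NW_011500051.1 of the PopEup_1.0 assembly holds circRNA_0839, which runs between positions 402079 and 409945 of the plus strand. It was the only circRNA of this gene. The interval covers 7867 bases, 46.0% of the genomic span of XM_011001732.1 (397616 to 414713), and the listed length of the ring is 7654 bases, 213 fewer than its genomic span. The study annotates XM_011001732.1 as a transcript variant of a WD repeat-containing protein, a class whose repeats fold into propellers that hold protein complexes together, and it picked this mRNA from these same samples.

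Gene LOC105127732 on scaffold NW_011499873.1, for which the sources used here give no product, holds circRNA_0351 between positions 361483 and 378394 of the minus strand. It spans 16912 bases, or 77.1% of the genomic span of XM_011029125.1 (358808 to 380738), and its listed length equals its genomic span. Unlike circRNA_0839 it was 1 of 4 circRNAs of its gene. circRNA_0348, circRNA_0349, circRNA_0350 and circRNA_0351 all end at 361483, which on the minus strand is the 3′ side of the ring, and differ on the 5′ side, at 368538, 368542, 378390 and 378394. The 4 junctions are therefore 2 pairs, each 4 bases apart, with 9852 bases between circRNA_0349 and circRNA_0351. Of all 1149 circRNAs, 250 (21.8%) shared an end with another circRNA, and 33 (2.87%) shared an end and lay within 10 bases of it at the other. Of the 872 genes with a circRNA, 22 (2.52%) had at least 4 circRNAs.

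**Figure D1:**
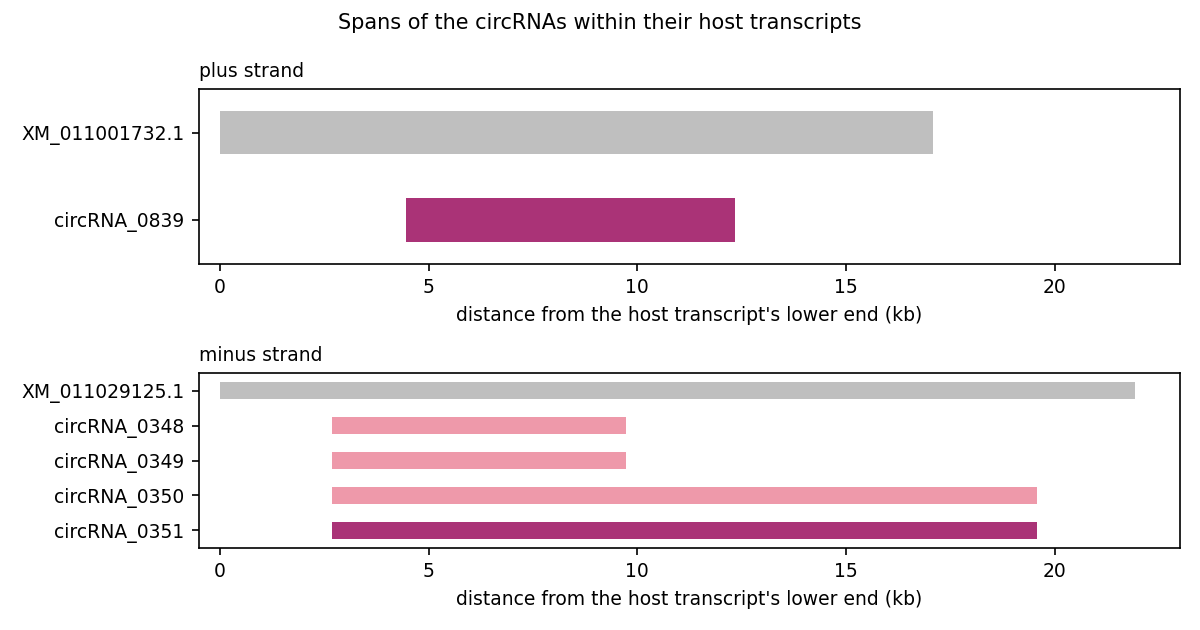
Spans of the circRNAs (dark: the group-limited circRNAs, light: the other circRNAs of the same gene) within their host transcripts (grey), plotted as distance in kb from the lower end of the host transcript. circRNA_0839 lies alone in its host, while the circRNAs of LOC105127732 share 1 end and form a short pair and a long pair.

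circRNA_0839 was supported by few reads. Its RPM was 0.0489, 0.0361 and 0.0368 in Bo1, Bo2 and Bo3 and 0 in each of the 9 libraries of the other groups. These values are 4, 3 and 3 junction reads, with exact 95% Poisson intervals of 1.09 to 10.2 reads for Bo1 and of 0.619 to 8.77 reads for Bo2 and Bo3, which cover counting error only. A count of 0 was taken to allow up to 3 reads, or 0.0349 to 0.0368 RPM over the 12 libraries. The two-sided interval of a 0 reaches further, to 3.69 reads, and a listed 0 may also hide 1 read, which allows more. The listed values in Bo2 and Bo3 thus lie at the level that a single library at 0 cannot exclude. Over the 3 Bo libraries the level was 0.0406 ± 0.00723 RPM (SD, n = 3). By mean RPM circRNA_0839 ranked 300 of 1149 circRNAs.

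Presence in all 3 Bo libraries and in no other library was found for this circRNA alone, 0.087% of the 1149. The pattern is at the edge of a long series of sparse ones: 155 circRNAs were listed in 1 Bo library only and 7 in 2 Bo libraries only, and 728 circRNAs (63.4%) were listed in a single library of any group. Just outside the rule, circRNA_0151 of LOC105120955 had 2, 2 and 3 reads in Bo1, Bo2 and Bo3 and 2 reads in La3. circRNA_0853 of LOC105108268 had 2, 2 and 6 reads in the Bo libraries and 2 reads in Ov1. Of those in 2 Bo libraries, circRNA_0189 of LOC105122093 had the most reads, 13 in Bo1 and 26 in Bo2, against fewer than 2 in Bo3. circRNA_0151 and circRNA_0853 were also the closest to circRNA_0839 over the 12 libraries among 243 circRNAs above 0 in at least 3 libraries (Pearson r of log2 RPM 0.83 and 0.82, a description in which shared zeros weigh most), followed by circRNA_0919 of LOC105110278 (r = 0.67).

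circRNA_0351 was more abundant. Its RPM was 0 in the 3 Li libraries, 0.0723, 0.120 and 0.339 in La1, La2 and La3, 0.417, 0.0856 and 0.312 in Ov1, Ov2 and Ov3, and 0.0612, 0.0601 and 0.110 in Bo1, Bo2 and Bo3. In reads these were 6, 10, 29, 34, 7, 26, 5, 5 and 9, in the same order. La3, Ov1 and Ov3 stood above the other 6 libraries, and the spread within a group went beyond counting error: the exact Poisson interval of the 29 reads of La3 was 19.4 to 41.6, against 2.20 to 13.1 for the 6 reads of La1. The same held in Ov, with 23.5 to 47.5 for Ov1 and 2.81 to 14.4 for Ov2. The mean of La was 0.177 ± 0.142 RPM, that of Ov 0.272 ± 0.169 RPM and that of Bo 0.0773 ± 0.0288 RPM (SD, n = 3 each), and the values of La, Ov and Bo overlapped.

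The 3 libraries with the highest circRNA_0351 were also those in which the most circRNAs were listed, 281 in La3, 280 in Ov3 and 240 in Ov1, against 153 to 224 in the other 9. Per 1000 junction reads outside the most abundant circRNA of the series, circRNA_0974, circRNA_0351 had 6.55 reads in La3, 10.7 in Ov1 and 8.23 in Ov3, and between 1.84 reads in Bo1 and 4.09 reads in La2 in the other 6 libraries that list it. La3, Ov1 and Ov3 thus stayed the highest of the 9 on this scale, on which Ov3 passed La3.

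The other circRNAs of LOC105127732 showed where circRNA_0351 sits within its gene. circRNA_0349, the short ring, ranked 22 of 1149 by mean RPM against 47 for circRNA_0351, and had 271 reads in all against 131. It was not absent from Li: its reads were 0, 4 and 5 in Li1, Li2 and Li3, 24, 12 and 48 in La1, La2 and La3, 52, 29 and 50 in Ov1, Ov2 and Ov3, and 15, 11 and 21 in Bo1, Bo2 and Bo3. Every La, Ov and Bo library was above every Li library. Such an order needs a listing in all 9 of those libraries, found for 20 of the 1149 circRNAs (1.74%). How many of these had the order was not counted. The limma difference between the mean of La, Ov and Bo and Li was 3.11 ± 0.74 (SE) in log2 RPM, which did not pass the test across circRNAs (adjusted p = 0.0897), beside a median of 0.58 for the 244 circRNAs tested. circRNA_0348, whose junction is 4 bases from that of circRNA_0349, had 3 to 5 reads in La2, La3, Ov1, Ov2, Ov3 and Bo3 and was at 0 elsewhere. circRNA_0350 had 3 reads in La3 and 2 in Ov2 only.

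The reads of the gene were divided between its rings in varying parts. circRNA_0351 took 16.7% (Ov2) to 40.0% (La2) of the junction reads of LOC105127732 in the 9 libraries that list it, and circRNA_0349 had 1.20 to 4.14 reads for each read of circRNA_0351. In Li only circRNA_0349 was listed, with 4 reads in Li2 and 5 in Li3. At these depths a missing circRNA_0351 in Li could not be told from a low one.

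**Figure D2:**
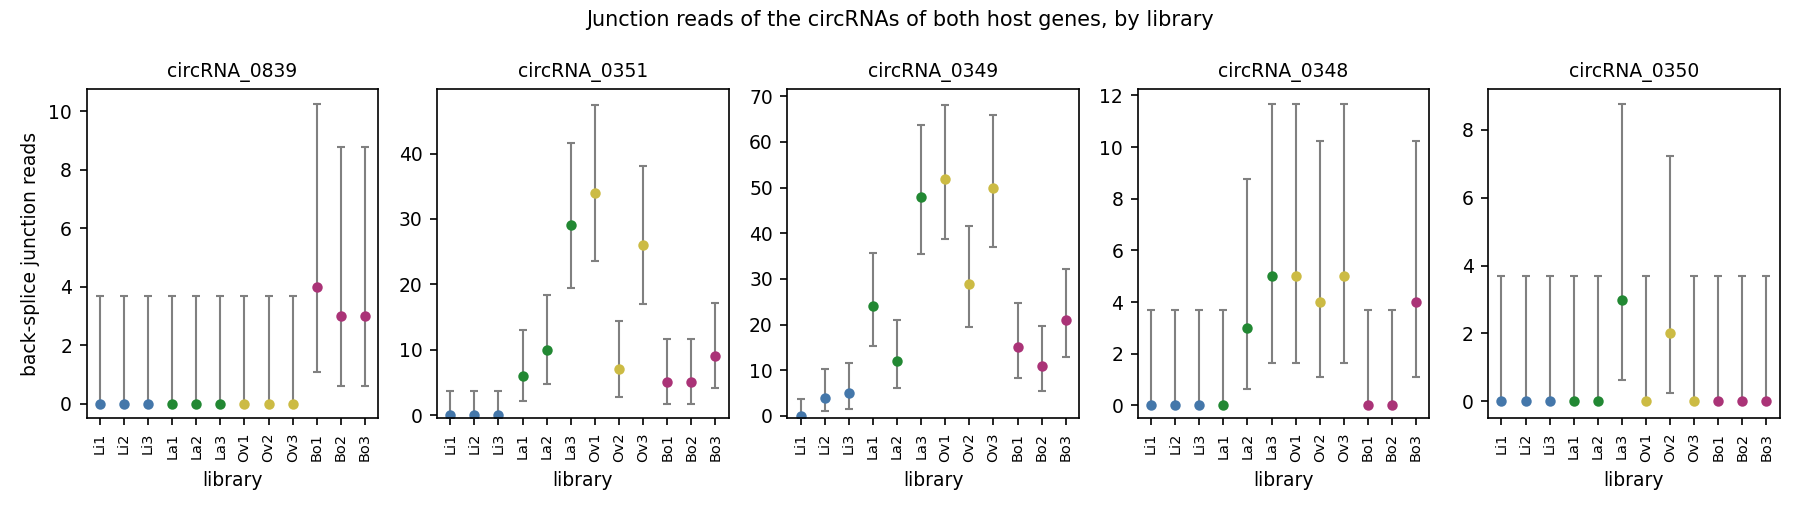
Back-splice junction reads of the 5 circRNAs of both host genes in each of the 12 libraries, with exact 95% Poisson intervals (bars, counting error only; a listed 0 stands for fewer than 2 reads). circRNA_0839 has 4, 3 and 3 reads in the Bo libraries alone, and circRNA_0351 peaks in Ov1 with 34 reads.

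Presence in all 9 libraries of La, Ov and Bo and in no Li library was also found for a single circRNA, 0.087% of the 1149. Just outside the rule, circRNA_0771 of LOC105141016 was listed in 8 of those 9 libraries, with 4 to 25 reads, and was missing from Ov1. circRNA_1020 of LOC105113095 was likewise in 8, with 2 to 19 reads, and was missing from Bo1. On the other side, circRNA_0349 and circRNA_1081 of LOC105115710 were in all 9 and in 2 Li libraries, while 17 circRNAs were in all 12. Over the 12 libraries the circRNAs closest to circRNA_0351 in log2 RPM were circRNA_0236 of LOC105123865 (Pearson r = 0.90), circRNA_0349 (r = 0.90) and circRNA_0126 of LOC105120409 (r = 0.86). circRNA_0236 and circRNA_0126 were listed in Li as well, at 2 to 7 reads and 3 to 7 reads.

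To see whether the mRNA under circRNA_0839 differed in Bo, XM_011001732.1 was compared between Bo and the mean of Li, La and Ov. It is a minor transcript: its FPKM was 0.00731, 0.108 and 0.120 in Li1, Li2 and Li3, 0.392, 1.03 and 0.460 in La1, La2 and La3, 1.47, 0.569 and 0.217 in Ov1, Ov2 and Ov3, and 0.00150, 1.41 and 2.82 in Bo1, Bo2 and Bo3. Bo held both its highest and its lowest value, and the lowest was in Bo1, the library with the most circRNA_0839 reads. The group means rose in the order Li (0.0784 ± 0.0619 FPKM), La (0.628 ± 0.351), Ov (0.751 ± 0.645) and Bo (1.41 ± 1.41, SD, n = 3 each). No pair of groups differed beyond their spread (limma, adjusted p of at least 0.270, where 0.73% of mRNAs were called in some pair). For Bo/Li, the pair of the study's rule, the unadjusted limma p was 0.0506.

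The fitted difference on the log2(FPKM + 1) scale was 0.56 ± 0.36 (SE) for Bo against the other groups, with a 95% interval of -0.23 to 1.34 (limma, adjusted p = 0.597, where 0.232% of the 32309 mRNAs tested were called). Of the 6 group pairs Bo/Li had the largest difference, 0.96 ± 0.44. Leaving out Bo3 took the difference for Bo from 0.56 to 0.12 and leaving out Bo1 took it to 1.09, and the adjusted p stayed between 0.367 and 0.916 over all 18 alternatives. In these leaf samples of mixed cells, fewer cells of a type and less RNA per cell cannot be told apart.

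XM_011001732.1 made up little of its gene. LOC105107701 has 12 transcripts in the mRNA tables, and XM_011001732.1 took 1.25% of their summed FPKM on average (rank 8), from 0.00410% in Bo1 to 4.09% in Bo3. XM_011001726.1 was the highest transcript in 12 of 12 libraries, at 56.0 to 78.4% of the sum. The share of XM_011001732.1 was 2.17 ± 2.05% in Bo (SD, n = 3) and 0.938 ± 0.955% in the other 9 libraries, a difference of 1.24 percentage points that did not go beyond the spread (exact permutation test, two-sided, p = 0.155 over 220 splits). Without Bo1 the difference was 2.32 percentage points (exact permutation p = 0.0364), and without Bo3 it was 0.279 (exact permutation p = 0.855). Of the 12 fits that left out 1 library, only 1 passed.

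For the gene as a whole, the summed FPKM was 41.0, 20.5 and 29.7 in Li1, Li2 and Li3, 50.9, 61.9 and 65.0 in La1, La2 and La3, 46.5, 61.3 and 83.7 in Ov1, Ov2 and Ov3, and 36.5, 58.0 and 68.9 in Bo1, Bo2 and Bo3. Bo lay within the range of La and Ov apart from Bo1. The difference between Bo and the mean of the other groups was 0.15 ± 0.25 in log2(FPKM + 1), with a 95% interval of -0.41 to 0.71 (limma, adjusted p = 0.867, 0.297% of 24227 genes called). Between the mean of La, Ov and Bo and Li the gene sum differed by 0.96 ± 0.25 and missed the threshold (adjusted p = 0.0620). Of the 11 other transcripts of the gene, 9 passed the filter on low values and none was called for Bo, with a median difference of 0.04, beside 0.06 for all mRNAs. Against Li none of these 9 was called either, and 8 of them had a positive difference, with a median of 0.43 beside 0.03 for all mRNAs.

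Set against its gene, circRNA_0839 was 0.00134, 0.000621 and 0.000534 RPM per FPKM of the gene sum in Bo1, Bo2 and Bo3. If the median of these ratios held elsewhere, the gene sums of the 9 libraries of Li, La and Ov would correspond to 1.08 (Li2) to 4.33 (Ov3) junction reads, and 7 of the 9 would reach the 2 reads needed for listing. All 9 were listed at 0. At the lowest and the highest of the 3 ratios the range would be 0.929 to 9.34 reads. These are the counts that chose the circRNA, so the reckoning is a description of depth and no test.

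To see whether the mRNA under circRNA_0351 also differed in Li, XM_011029125.1 was compared between the mean of La, Ov and Bo and Li. Its FPKM was 0.600, 0.707 and 0.532 in Li1, Li2 and Li3, 2.91, 2.73 and 12.8 in La1, La2 and La3, 13.2, 3.63 and 8.69 in Ov1, Ov2 and Ov3, and 1.60, 3.02 and 4.49 in Bo1, Bo2 and Bo3. Every Li library was below every other library, an order seen in 5.09% of the 32309 mRNAs tested. The group means rose in the order Li (0.613 ± 0.0881 FPKM), Bo (3.04 ± 1.45), La (6.15 ± 5.77) and Ov (8.50 ± 4.78, SD, n = 3 each), and Bo, La and Ov overlapped.

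The fitted difference between La, Ov and Bo and Li was 1.85 ± 0.44 (SE) in log2(FPKM + 1), or 3.60-fold on that scale, with a 95% interval of 0.88 to 2.82. It missed the threshold across all mRNAs (limma, adjusted p = 0.0631, where 1.46% of mRNAs were called, 361 higher and 112 lower, or 180 higher and 156 lower after upper quartile scaling). La and Ov libraries of the same number were taken as pairs because their values correlated, as the labels state no pairing. With those pairs as a random block the adjusted p of XM_011029125.1 was 0.106. A pseudocount of 0.1 in place of 1 gave a difference of 2.73 that passed (adjusted p = 0.0349). The pair Ov/Li differed by 2.42 ± 0.54 (adjusted p = 0.0761, 0.306% of mRNAs called).

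The gene sum of LOC105127732 passed the test. It was 0.961, 1.40 and 0.648 FPKM in Li1, Li2 and Li3, 5.29, 5.16 and 18.8 in La1, La2 and La3, 15.7, 7.54 and 15.3 in Ov1, Ov2 and Ov3, and 3.14, 4.45 and 7.08 in Bo1, Bo2 and Bo3. Every Li library again lay below all others, as in 6.69% of the genes tested. The gene sum was 2.16 ± 0.38 higher in La, Ov and Bo than in Li on the log2(FPKM + 1) scale, or 4.46-fold on that scale, with a 95% interval of 1.32 to 3.00 (limma, adjusted p = 0.0259, 3.41% of 24227 genes called, 649 higher and 177 lower, or 384 higher and 244 lower after upper quartile scaling). A pseudocount of 0.1 in place of 1 gave a larger log2 difference, 2.88. With the La and Ov pairs as a random block the adjusted p of LOC105127732 was 0.0503, and it was 0.144 without Li2, 0.161 without Li3 and 0.0558 without Bo2. Ov/Li was called on its own (2.74 ± 0.46, adjusted p = 0.0384, 0.854% of genes called). La/Li (adjusted p = 0.122, 0.0702% called) and Bo/Li (adjusted p = 0.117, 0.999% called) were not, and the differences between these pairs were not called either.

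Both transcripts of LOC105127732 in the mRNA tables lay lower in Li. XM_011029124.1 was at 0.116 to 0.693 FPKM in Li and at 1.43 to 6.66 FPKM in the other groups, and it rose by 1.53 ± 0.31 (limma, adjusted p = 0.0420). That call is close to the threshold and was lost in 9 of the 12 fits that left out 1 library and with the random block (adjusted p = 0.0509). XM_011029125.1 held 61.8% of the gene sum on average and was the higher of both transcripts in 11 of 12 libraries. Its share was 65.0 ± 16.0% in Li (SD, n = 3) and 60.8 ± 11.3% in the other 9 libraries, with no difference beyond the spread (4.24 percentage points, exact permutation test, two-sided, p = 0.664).

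**Figure D3:**
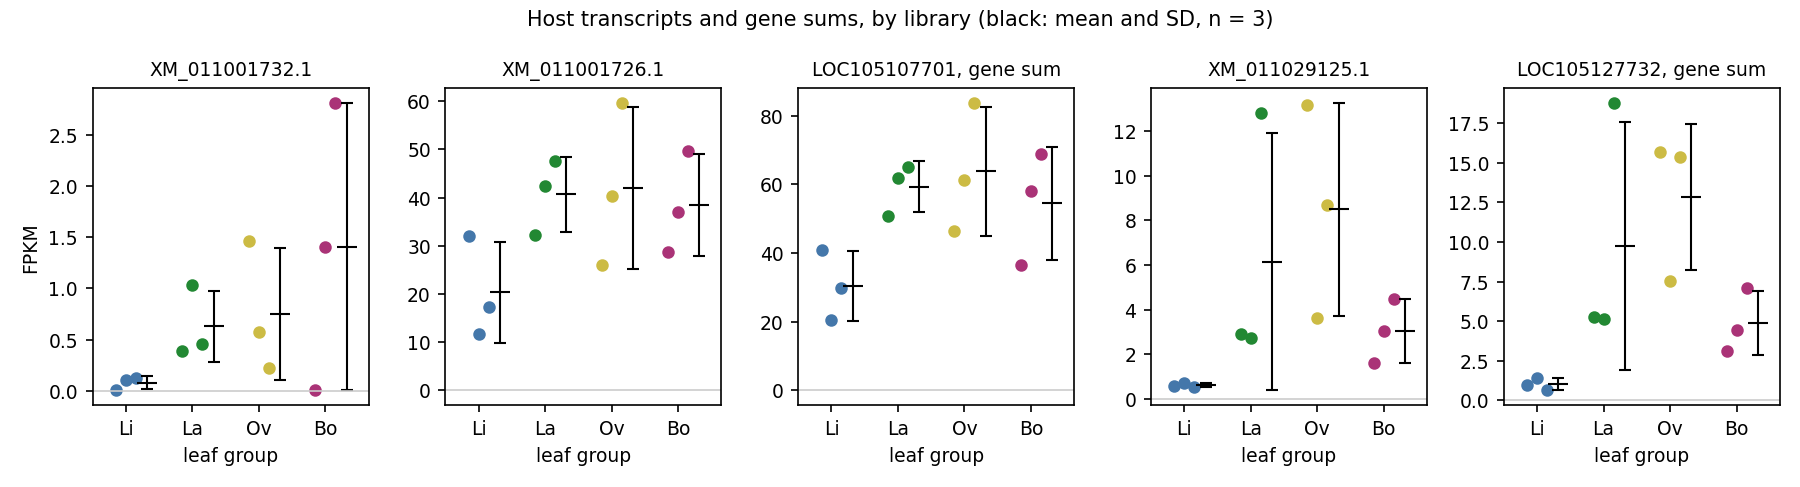
FPKM of the host transcripts, of XM_011001726.1 (the main transcript of LOC105107701) and of both gene sums in each library by leaf group, with the group mean and SD (n = 3). XM_011001732.1 is at its lowest and its highest in Bo, from 0.00150 to 2.82 FPKM, and XM_011029125.1 does not exceed 0.707 FPKM in Li.

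**Figure D4:**
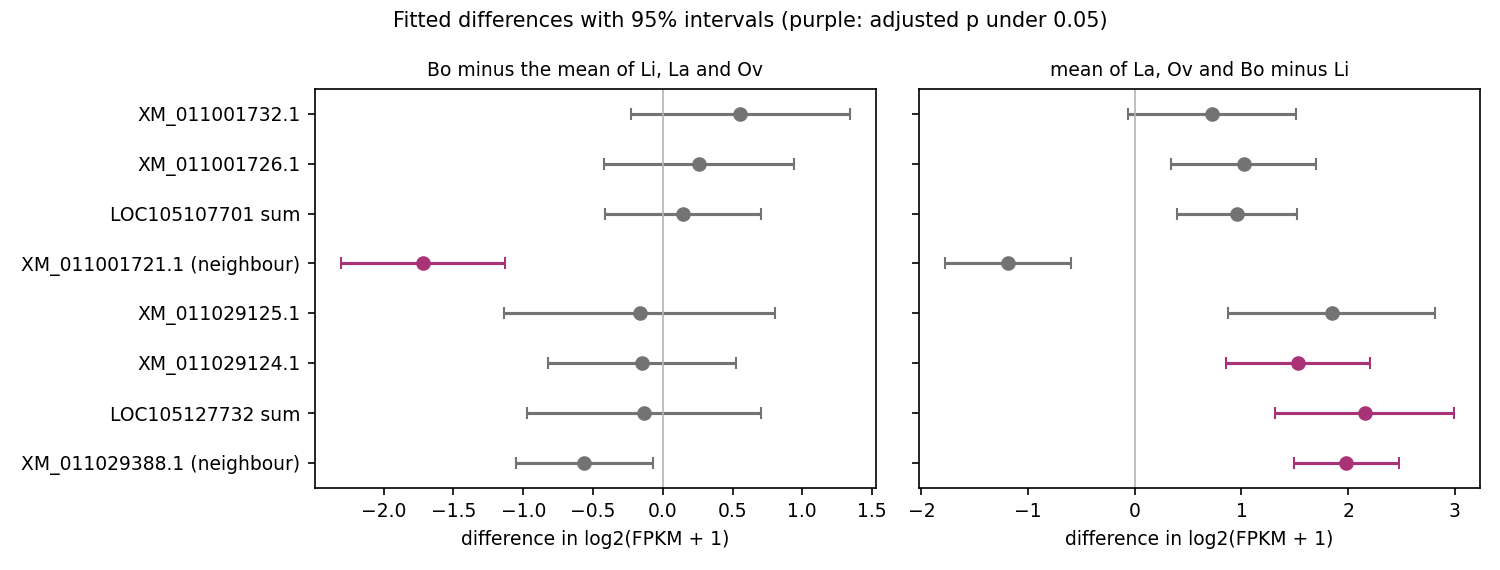
Fitted differences in log2(FPKM + 1) with 95% intervals from limma for Bo against the mean of Li, La and Ov (left) and for the mean of La, Ov and Bo against Li (right), in the host transcripts, the main other transcripts, the gene sums and 1 neighbour of each host gene. Purple points have an adjusted p under 0.05: XM_011001721.1 on the left, and XM_011029124.1, the gene sum of LOC105127732 and XM_011029388.1 on the right.

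Over the libraries, circRNA_0351 varied less relative to its host than it did in level. The ratio of circRNA_0351 RPM to XM_011029125.1 FPKM was 0.0249, 0.0439 and 0.0265 in La1, La2 and La3, 0.0317, 0.0236 and 0.0359 in Ov1, Ov2 and Ov3, and 0.0383, 0.0199 and 0.0246 in Bo1, Bo2 and Bo3. The ratio thus spanned 0.0199 to 0.0439, while RPM went from 0.0601 to 0.417 and FPKM from 1.60 to 13.2 in the same libraries. For all 4 rings against the gene sum, the mean ratio of La was 0.0598 ± 0.00784, that of Ov 0.0675 ± 0.00393 and that of Bo 0.0600 ± 0.0174 RPM per FPKM (SD, n = 3 each). In Li it was 0, 0.0337 and 0.0897 in Li1, Li2 and Li3, a range that held those of the other groups.

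La3, Ov1 and Ov3 were the highest libraries on both measures and stood apart from the other 6, so no correlation over all 9 libraries is given. Within the 6 others Pearson's r was 0.515 (exact permutation p = 0.314, two-sided) and Spearman's rho 0.200 (exact permutation p = 0.714). For circRNA_0349 and XM_011029125.1 in the same 6 libraries r was 0.473 (exact permutation p = 0.353) and rho 0.371 (exact permutation p = 0.497). Adjusted over both circRNAs, p was 0.353 for r and 0.714 for rho. These 6 libraries, chosen after seeing the data, span a narrower range (1.60 to 4.49 FPKM), in which a relation was not detectable. Within La, Ov and Bo alike, the library with the highest XM_011029125.1 (La3, Ov1 and Bo3) was also the one with the most circRNA_0351. The order of the other libraries was the same in Ov and crossed in La, while Bo1 and Bo2 tied at 5 junction reads each.

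The absence of circRNA_0351 from Li can be read against that proportion. At the median ratio of the 9 libraries, 0.0265 RPM per FPKM, the host levels of Li1, Li2 and Li3 would correspond to 1.34, 1.59 and 1.21 junction reads, below the 2 reads needed for listing. At the highest ratio they would correspond to 2.23, 2.63 and 2.01 reads, below the 3 reads that a count of 0 allows. With the gene sum as the base the median ratio gave 1.01 to 2.14 reads, and the highest ratio gave up to 3.16 reads (Li2), above those 3 reads. For circRNA_0349 the same reckoning from the gene sum gave 3.18, 4.64 and 2.18 reads in Li1, Li2 and Li3, where 0, 4 and 5 were listed. The counts of circRNA_0351 chose it, so the reckoning describes depth, 1 library at a time, and is no test. Whether circRNA_0351 was lower in Li beyond the lower level of its host was not tested.

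**Figure D5:**
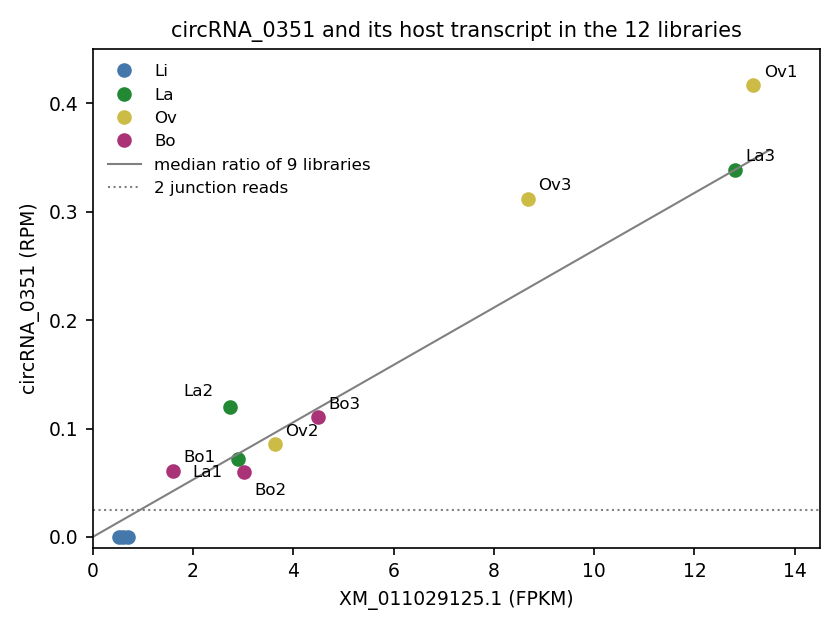
circRNA_0351 (RPM) against XM_011029125.1 (FPKM) in the 12 libraries, coloured by leaf group. The line is the median ratio of the 9 libraries that list the circRNA (0.0265 RPM per FPKM), the dotted line marks 2 junction reads, and the Li libraries lie at 0 RPM and at most 0.707 FPKM.

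Genes beside the hosts in the RefSeq gene table were followed as well. In that table LOC105127908 lies inside the span of LOC105127732 and covers the end that its circRNAs share. Its transcript XM_011029388.1 was at 5.02, 3.36 and 2.69 FPKM in Li1, Li2 and Li3, at 15.8 to 29.6 FPKM in La and Ov, and at 8.53, 9.01 and 8.29 FPKM in Bo1, Bo2 and Bo3. Its groups Li, Bo and the pair of La and Ov did not overlap. Every Li library was below all others in 5.09% of mRNAs, and the share with the full order was not counted. XM_011029388.1 was 1.98 ± 0.22 higher in La, Ov and Bo than in Li (limma, adjusted p = 0.00795), a call lost without Li2 (0.0793) or Li3 (0.0763). Reads were counted by strand, and the strand of LOC105127908 is not in the table. Its r with XM_011029125.1 over the 12 libraries was 0.80, rank 989 of 32307 mRNAs of other genes. The flanking LOC105127728 (XM_011029122.1) and LOC105127729 (XM_011029123.1) differed by 0.61 ± 0.25 and -0.40 ± 0.36 and were not called (adjusted p = 0.183 and 0.512).

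Beside LOC105107701 the direction was another. XM_011001721.1 of LOC105107700 was at 9.93 to 19.3 FPKM in Li, 5.57 to 9.02 FPKM in La, 8.03 to 17.7 FPKM in Ov and 2.16 to 3.09 FPKM in Bo. Every Bo library was below all others, as in 0.836% of mRNAs. It fell by 1.72 on the log2(FPKM + 1) scale in Bo (SE 0.27, limma, adjusted p = 0.0283), and 6 of the 12 fits that left out 1 library kept the call. The lncRNA XR_838933.1 of LOC105107703 was at 3.01 to 6.36 FPKM with overlapping groups. The RefSeq gene table places LOC105107703 inside the span of LOC105107701 and over an end of circRNA_0839. Its entry for LOC105107701 differs from the span of XM_011001732.1 given above, so this placement is uncertain. XM_011001735.1 of LOC105107704 was at 0 to 0.726 FPKM, and XM_011001736.1 of LOC105107705 at 30.2 to 65.9 FPKM.

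Among mRNAs of other genes, the pattern of XM_011001732.1 was most like that of XM_011033745.1 (SBI1, in Arabidopsis a methyltransferase that acts on a protein phosphatase of brassinosteroid signalling), with a Pearson r of 0.93 in log2(FPKM + 1) over the 12 libraries. XM_011026073.1 of LOC105125557 (r = 0.91) and XM_011001140.1 of LOC105107265 (r = 0.89) followed. XM_011029125.1 was most like XM_011034431.1 of LOC105131448 (r = 0.97), XM_011016273.1 of LOC105118350 (r = 0.96) and XM_011044241.1 of LOC105138205 (r = 0.96). These are the top 3 of 32299 and 32307 mRNAs and describe 12 libraries that share their groups and depth. All 3 of the latter had their lowest group mean in Li and their highest in Ov. XM_011029125.1 has the same order, so their choice by likeness made this likely.

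Hosts of circRNAs in general were looked at beside these members. Of 154 mRNAs overlapped by a circRNA listed in Bo libraries only, 124 passed the filter and 0 were called for Bo, with a median difference of 0.10, beside 0.06 and 0.232% called for all mRNAs. Of 38 mRNAs overlapped by a circRNA listed in no Li library but in La, Ov and Bo, 33 passed the filter and 3 (9.09%) were called as higher in La, Ov and Bo than in Li, with a median of 0.33, beside 0.03 and 1.12% called higher for all mRNAs. Those 3, named after their values were seen, were transcripts of LOC105112916, LOC105114693 and LOC105132327. The list shares its libraries with the contrast and its reads with the FPKM values. Of all 890 mRNAs named as overlapped by a circRNA, 764 passed the filter, of which 1 was called for Bo and 18 (2.36%) between La, Ov and Bo and Li, 16 higher and 2 lower. In that contrast 3 of the 124 hosts of Bo-only circRNAs (2.42%) were called as well. Across the circRNAs themselves, limma called 0 of 244 in any group pair or in the test over the 4 groups, with 51 and 18 at an unadjusted p under 0.05. Between La, Ov and Bo and Li, 0% were called. For Bo against the mean of the other groups 1 of 244 was called, as higher, and 16 had an unadjusted p under 0.05. The pattern of that contrast chose circRNA_0839, so this count is background and no test of the member.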

How the data were processed

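Strand-specific total RNA libraries of 12 leaf samples were sequenced by the authors. According to the study's methods, reads were aligned to PopEup_1.0 with TopHat2 and to its transcripts with Bowtie2 (up to 30 placements per read), and eXpress divided them among isoforms to give the deposited FPKM values, so a minor isoform is less certain than its gene sum. The deposited RPM values of circRNAs came from junction reads found with CIRI (version 2.0.1), and with the lowest value of a library taken as 2 reads all of them came out whole within 0.01 reads. Files of the mRNAs, lncRNAs and circRNAs of every library were used, and FPKM was summed by gene symbol for 49440 of 49676 transcripts (30456 genes).

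FPKM was tested as log2(FPKM + 1) with limma 3.58.1 in R 4.3.3 (4 group means, all 12 libraries, mean-variance trend, mean of at least 0.5 FPKM, Benjamini-Hochberg over all features, threshold 0.05). circRNAs were tested as log2(RPM + 0.0116) where above 0 in at least 3 libraries. Contrasts were Bo against the mean of Li, La and Ov, the mean of La, Ov and Bo against Li, and the 6 group pairs. Isoform shares and relations were tested by exact permutation (numpy 2.4.6, scipy 1.17.1). The fit was tested on simulated data. The labels state no pairing, and La and Ov libraries of the same number were taken as pairs from the data. Their deviations from group means correlated at 0.246, 0.641 and 0.662 for numbers 1, 2 and 3. The same-number values were 0.321, 0.0407 and 0.289 in Bo/Ov and 0.138, -0.0232 and 0.158 in Bo/La. Pairs with Li ran from -0.21 to 0.109. The random block left Bo unpaired.

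Named features were the members, the other transcripts, circRNAs and neighbours of their genes in the RefSeq table of PopEup_1.0 (whose assembly version differs, so none of its coordinates is given), the 3 features most alike each member, and circRNAs that missed a pattern by 1 library. The members and lists were chosen with earlier results of these data known. XR_842690.1 of LOC105127732 was not analysed here.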

Additional observations from a re-analysis of the deposited data

How the results depend on the processing

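Results were recomputed with a pseudocount of 0.1, with no filter, with a filter of 0.1 FPKM, after upper quartile scaling, with the replicate block and with each library left out in turn. The difference of XM_011029125.1 between La, Ov and Bo and Li passed the threshold with a pseudocount of 0.1 (2.73) and with the replicate block fixed over all 12 libraries (1.85, adjusted p = 0.0425). The gene sum of LOC105127732 lost its call with the La and Ov pairs as a random replicate block (2.16, adjusted p = 0.0503), and its 12 values with a library left out ran from 1.97 to 2.30. The gene sum of LOC105107701 for Bo ran from -0.044 (without Bo3) to 0.40 with a library left out. The share of XM_011001732.1 ran from 0.279 to 2.32 percentage points and passed without Bo1, and that of XM_011029125.1 ran from -4.31 to 11.5. With a library left out the uncalled pairs of XM_011001732.1 ran from -0.22 to 0.29 (Ov/La), from -0.047 to 0.92 (Bo/La) and from -0.11 to 0.855 (Bo/Ov), and Bo/La of XM_011029125.1 ran from -0.93 to 0.015, its sign changing without La3. The fixed replicate block also brought Ov/Li of XM_011029125.1 past the threshold (2.42, adjusted p = 0.0488) and changed no other call among the contrasts and pairs of XM_011001732.1 and XM_011029125.1 and the 2 gene-sum contrasts rerun. Ov/Li was also called without La3 (adjusted p = 0.0426).

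mRNAs called for Bo numbered 75, against 233 with no filter, 157 with a filter of 0.1 FPKM and 33 to 543 with a library left out. mRNAs called for La, Ov and Bo against Li numbered 473, against 1505 with the fixed replicate block, 192 with the random one and 6 to 733 with a library left out, the lowest without Li2 and Li3 (6 and 10). Upper quartile scaling turned their split from 361 higher and 112 lower to 180 higher and 156 lower. circRNAs called in any group pair numbered 0, against 3 with no filter and 0 to 4 with a library left out. The test over the 4 groups called 0, against 1 with no filter. The relation of circRNA_0351 with its host within the 6 libraries outside La3, Ov1 and Ov3 (r = 0.515), and the scaling per 1000 junction reads, were chosen after seeing the data. The count test of junction reads was not run. The causes were not tested. Depth limits circRNA_0839, with 3 to 4 junction reads per Bo library.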

Other observations

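Hosts of the circRNAs that missed either pattern by 1 library were compared in the same way. Between La, Ov and Bo and Li, XM_011048079.1 of LOC105141016, the host of circRNA_0771, differed by 1.98 ± 0.64 (SE) in log2(FPKM + 1) and XM_011009118.1 of LOC105113095, the host of circRNA_1020, by 0.68 ± 0.31 (limma, adjusted p = 0.120 and 0.219). Between Bo and the other groups, XM_011019402.1 of LOC105120955, the host of circRNA_0151, differed by 1.33 ± 0.49 and XM_011002516.1 of LOC105108268, the host of circRNA_0853, by 0.12 ± 0.14 (limma, adjusted p = 0.340 and 0.796). None of these 4 passed the test. Of the 7 circRNAs listed in 2 Bo libraries only, 5 had a host that passed the filter, and none was called for Bo, with differences from -0.84 (XM_011046736.1) to 0.28 (XM_011041714.1).

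Of the circRNAs listed in 2 Bo libraries and nowhere else, 6 of 7 were missing from Bo3. The only mRNA under a circRNA that was called for Bo, named after its value was seen, was XM_011024752.1 of LOC105124650 with circRNA_0260 and circRNA_0261, at 3.36 ± 0.47 (limma, adjusted p = 0.0135), and it was also called between La, Ov and Bo and Li, at 2.49 ± 0.47 (adjusted p = 0.0366).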
